A study of Mus musculus with 7 samples.

Results

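The 32 genes described here encode the glucose transporters, the enzymes that turn glucose into pyruvate and lactate, the lactate transporters and the core of the hypoxia response. They were taken by symbol from a list, and all 32 of them were found among the 39179 genes of the authors' deposited table. The list names genes by function, and no cutoff on a measured value was part of its rule. It was chosen with earlier results of these data known, so counts over it are no independent check. Messenger RNA was sequenced from regulatory T cells (Treg), the CD4 T cells that hold immune responses in check under the factor Foxp3, sorted as CD4+ TCRb+ CD25hi Foxp3+ cells from lymph nodes of C57BL/6 mice aged 3 weeks. The replicated comparison sets 3 double-knockout (dKO) libraries, of genotype Id2fl/flId3fl/flFoxp3cre, against 2 control libraries, of genotype Id2fl/+Id3fl/+Foxp3cre. All of these mice carry the Foxp3-driven Cre recombinase, and the controls also carry 1 floxed allele each of Id2 and Id3, which encode inhibitors of the E protein transcription factors. A further pair holds 1 library labelled dKO and 1 labelled control by title and source name, while their genotype tags are the reverse. Which animal each library came from is not labelled, so the p-values reflect only how far these libraries differ among themselves, and that spread may be technical.

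Glycolysis splits glucose into pyruvate in the cytosol, and lactate dehydrogenase turns pyruvate into lactate so that the pathway can go on without oxygen. In hypoxia the transcription factor HIF-1, a dimer of HIF-1 alpha (Hif1a) and its constant partner (Arnt), escapes destruction by prolyl hydroxylases (Egln1, Egln3) and the ubiquitin ligase subunit VHL, and it activates most genes of glycolysis. In T cells the same genes are raised by activation and growth. In Treg, glycolysis is known to support proliferation and migration, and oxidative metabolism is known to support suppressive function.

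Expression in the replicated comparison is given as scaled counts, that is, reads after division by the size factor of their library, which the authors averaged within dKO and within control. These are the authors' group means and carry no SD. A gene is said to have risen or fallen in dKO where its adjusted p is under 0.05 in the authors' deposited table (DESeq, adjusted over all genes). The means summed to 3.99e+07 scaled counts in dKO and 3.90e+07 in control. Id2 had 61.1 scaled counts in dKO and 783 in control, and Id3 had 891 in dKO and 1376 in control, with adjusted p-values of 1.48e-08 and 0.209 in the authors' deposited table. In the pair, Id2 had 9.69 FPKM in the library labelled dKO and 18.6 FPKM in the library labelled control, while Id3 had 221 FPKM in the library labelled dKO and 160 FPKM in the library labelled control. Id3 therefore does not bear out the label of either library of the pair, and which part of Id2 or Id3 is deleted is not stated, so reads from undeleted parts may remain. All 7 genes of a regulatory T cell list (Foxp3, Il2ra, Ikzf2, Ctla4, Cd4, Cd3e and Cd3g) were present in both groups, and 1 of them rose, 0 fell and 6 did not pass. Foxp3 had 10942 scaled counts in dKO and 13481 in control, and Il2ra had 32126 in dKO and 32376 in control. The gene that rose was Ctla4, an inhibitory receptor, with 26706 in dKO and 13258 in control (adjusted p 4.71e-05 in the authors' deposited table).

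Each step of glycolysis from the cleavage of fructose bisphosphate down to lactate export had at least 1 gene whose transcript rose in dKO Treg. Of the 32 genes, 15 rose, 3 fell and 14 did not pass the threshold in the authors' deposited table. Among all 31641 genes with a p, 3.38% rose and 3.18% fell, 6.56% in all. Among the 15446 genes with a mean of 10 scaled counts or more, a minimum that all 32 met, 6.80% rose and 6.48% fell, 13.3% in all. Most of the 32 genes are abundant, and among the 6673 genes with a mean of 1000 scaled counts or more, 8.03% rose and 5.39% fell, 13.4% in all. The median log2 ratio (dKO over control) of the 32 genes was 0.33, against -0.01 for those 15446 genes. Log2 ratios in the authors' deposited table ran from -1.73 for the enolase gene Eno2 to 1.73 for the prolyl hydroxylase gene Egln3. The 32 genes held 0.763% of all scaled counts in dKO and 0.521% in control. In bulk RNA, a change in the share of cells that express a gene and a change in RNA per cell cannot be told apart.

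**Figure D1:**
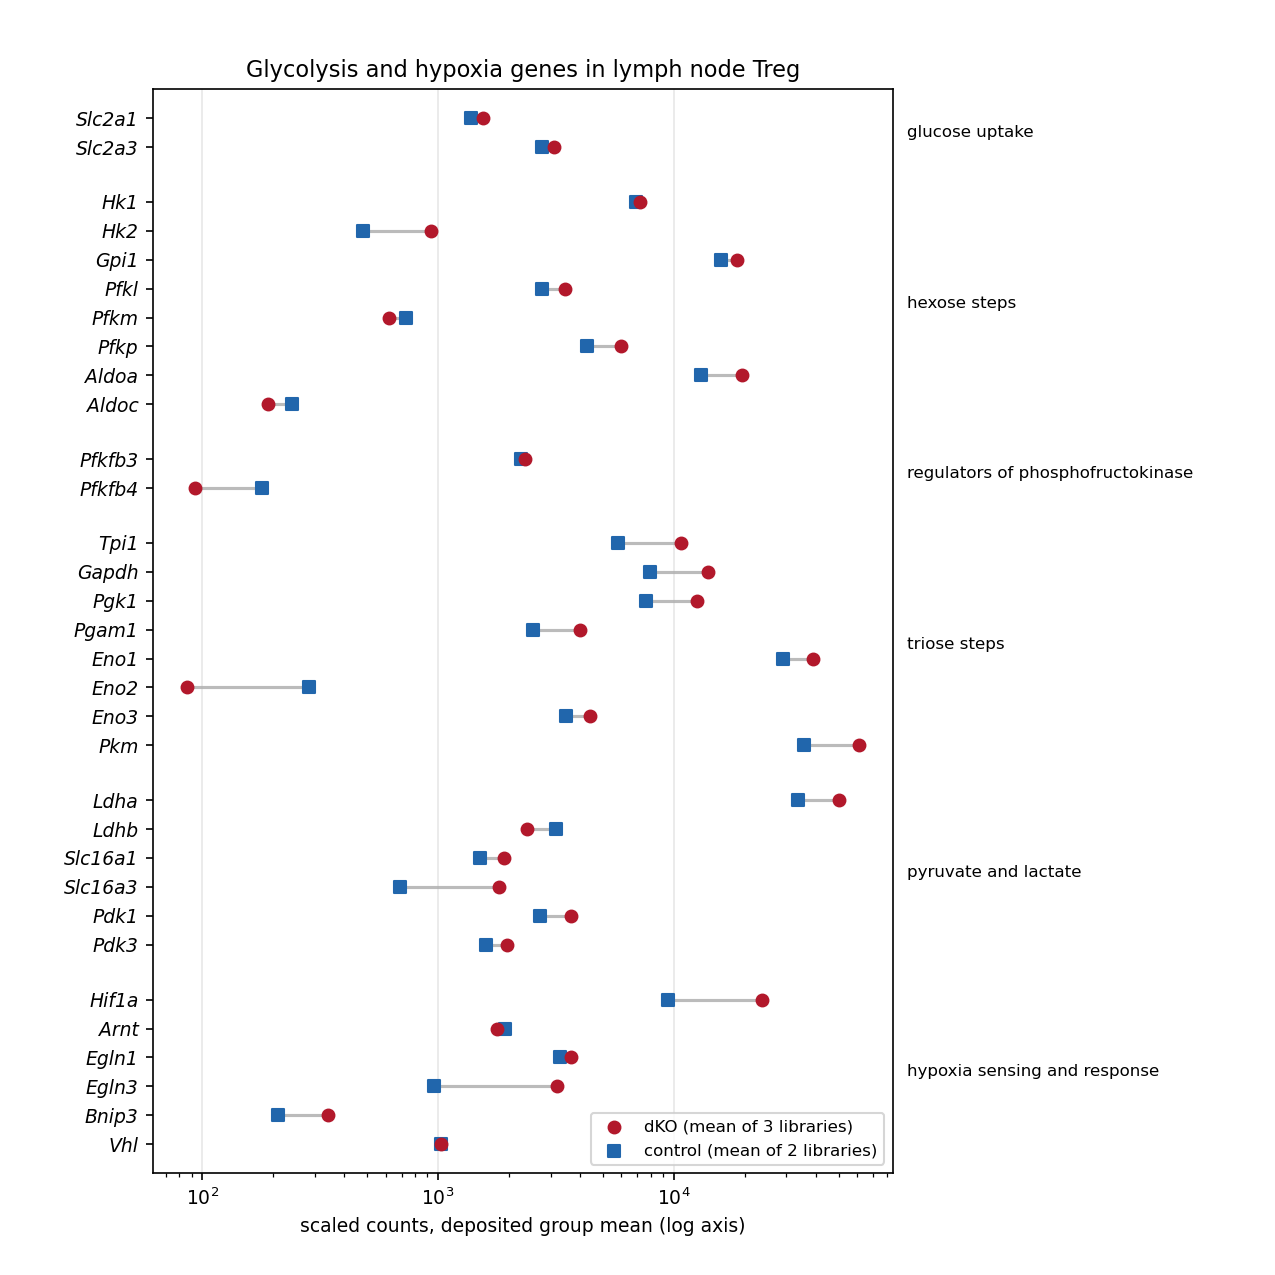
Scaled counts of the 32 genes on a log axis, grouped by role, with the dKO mean as a red circle and the control mean as a blue square. The red circle lies to the right of the blue square for 25 genes, and the widest gaps are those of Egln3, Eno2, Slc16a3 and Hif1a.

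Neither glucose uptake gene passed the threshold. Slc2a1, the widely expressed glucose transporter GLUT1, had 1549 scaled counts in dKO and 1381 in control. Slc2a3, the high-affinity transporter GLUT3, had 3092 in dKO and 2763 in control. Their adjusted p-values in the authors' deposited table were 0.917 and 0.937. Their log2 ratios were 0.17 and 0.16, both below the median of the 32 genes.

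Among the steps that act on hexoses, 3 of 8 genes rose and 0 fell. Hk2 (chromosome 6, 82725025 to 82774454, GRCm38), the inducible hexokinase that traps glucose as glucose 6-phosphate, had 934 scaled counts in dKO and 480 in control. The log2 ratio of Hk2 was 0.96 with adjusted p = 1.5e-05 in the authors' deposited table. The constitutive hexokinase gene Hk1 had 7186 scaled counts in dKO and 6890 in control, with adjusted p = 1 in the authors' deposited table (DESeq). Of the phosphofructokinase genes, which encode the committed step, Pfkp (platelet type) rose, with 5968 scaled counts in dKO and 4273 in control and adjusted p = 0.007 in the authors' deposited table. Pfkl (liver type) had 3465 in dKO and 2748 in control (adjusted p 0.149), and Pfkm (muscle type) had 622 in dKO and 733 in control (adjusted p 0.669, both from the authors' deposited table). Thus the 3 subunit genes lay at log2 ratios of 0.48, 0.33 and -0.24, and Pfkp alone of them passed the threshold, a difference between them that was not tested. Gpi1, which converts glucose 6-phosphate to fructose 6-phosphate, had 18498 scaled counts in dKO and 15922 in control and did not pass.

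Aldolase cleaves fructose bisphosphate into triose phosphates, and triose phosphate isomerase interconverts them. Aldoa rose, with 19497 scaled counts in dKO and 13049 in control, a log2 ratio of 0.58 and adjusted p = 0.0005 in the authors' deposited table. Tpi1, the isomerase, rose too, with 10685 scaled counts in dKO and 5790 in control, a log2 ratio of 0.88 and adjusted p = 4.06e-09 in the authors' deposited table. The low-abundance aldolase gene Aldoc had 190 scaled counts in dKO and 240 in control and did not pass. Of the genes above that rose, 3 overlap a gene on the opposite strand, namely Tpi1 (Spsb2, 97.9 scaled counts in dKO and 89.6 in control), Pfkp (Pitrm1, 2341 in dKO and 2278 in control) and Hk2 (Gm17034, 1.85 in dKO and 2.40 in control). The libraries were made with a method that marks strand, but whether counting used strand is not stated, so part of these reads could belong to either gene.

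The PFKFB genes encode enzymes that set the level of fructose 2,6-bisphosphate, the activator of phosphofructokinase. Pfkfb4 (chromosome 9, 108991902 to 109032223) fell, with 93.2 scaled counts in dKO and 179 in control, a log2 ratio of -0.94 and adjusted p = 0.0013 in the authors' deposited table. Pfkfb3 had 2345 scaled counts in dKO and 2259 in control, with adjusted p = 1 in the authors' deposited table. Pfkfb4 therefore fell while Pfkfb3, the more abundant of these 2 genes per kilobase of exon, stood at a log2 ratio of 0.05.

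Among the triose steps, which run from Tpi1 to pyruvate kinase and yield ATP, 6 of 8 genes rose and 1 fell. Gapdh, which oxidises glyceraldehyde 3-phosphate, had 13962 scaled counts in dKO and 7920 in control (log2 ratio 0.82, adjusted p 5.51e-08 in the authors' deposited table). Pgk1, which makes the first ATP of the pathway, had 12542 in dKO and 7619 in control (log2 ratio 0.72, adjusted p 3.34e-06 in the authors' deposited table). Pgam1, the phosphoglycerate mutase, had 4015 in dKO and 2533 in control (log2 ratio 0.66, adjusted p 6.66e-05 in the authors' deposited table). Pkm, the pyruvate kinase, had the highest level per kilobase of exon of the 32 genes, at 23473 in dKO and 13668 in control. It had 61007 scaled counts in dKO and 35522 in control, with a log2 ratio of 0.78 and adjusted p = 2.4e-07 in the authors' deposited table. Values per gene cannot tell the PKM1 and PKM2 splice forms apart.

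The enolase genes moved apart. Eno1, the ubiquitous enolase, had 39146 scaled counts in dKO and 29024 in control, a log2 ratio of 0.43 with adjusted p = 0.0152 in the authors' deposited table. Eno2 (chromosome 6, 124760053 to 124769673), known as neuron-specific enolase, had 85.8 scaled counts in dKO and 284 in control, a log2 ratio of -1.73 with adjusted p = 8e-14 in the authors' deposited table. Eno3, the muscle form, had 4397 in dKO and 3505 in control and adjusted p = 0.221 in the authors' deposited table. The dKO mean of Eno2 was 30.2% of its control mean, while Eno2 made up under 1% of enolase transcripts per kilobase in either group.

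Several of these genes have near-identical copies, with which reads may be shared. Gapdh had 67 copies with reads, at 95% identity over 200 bases or more of the coding sequence. Pgk1 and Eno1 had 2 each, and Gpi1, Pgam1, Ldha, Ldhb and Bnip3 had 1 each. Summed over each gene and its copies, Gapdh had 16697 scaled counts in dKO and 9285 in control, a log2 ratio of 0.85. The same sums gave log2 ratios of 0.73 for Pgk1, 0.62 for Pgam1 and 0.42 for Eno1. The copy of Pgam1 alone had 6290 scaled counts in dKO and 4151 in control, and the 2 copies of Pgk1 had 10192 in dKO and 6083 in control. Summing changed none of these directions, and it moved no log2 ratio of the 18 genes past the threshold by as much as 0.1.

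At the pyruvate branch, 3 of 6 genes rose (Ldha, Slc16a3 and Pdk1) and 1 fell (Ldhb). Ldha, the lactate dehydrogenase subunit that favours lactate formation, had 50329 scaled counts in dKO and 33532 in control, a log2 ratio of 0.59 with adjusted p = 0.0003 in the authors' deposited table. Ldhb, the subunit that favours pyruvate formation, had 2393 in dKO and 3171 in control, a log2 ratio of -0.41 with adjusted p = 0.0435 in the authors' deposited table. Slc16a3 (chromosome 11, 120948480 to 120960868) encodes MCT4, the lactate exporter of highly glycolytic cells. It had 1818 scaled counts in dKO and 693 in control, a log2 ratio of 1.39 with adjusted p = 1.86e-14 in the authors' deposited table. Slc16a1, which encodes the lactate transporter MCT1, had 1898 in dKO and 1511 in control and adjusted p = 0.185 in the authors' deposited table. Pdk1, a kinase that shuts off pyruvate dehydrogenase, had 3650 in dKO and 2704 in control (log2 ratio 0.43, adjusted p 0.0214 in the authors' deposited table). Pdk3, a kinase of the same family, had 1957 in dKO and 1595 in control and did not pass.

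Of the hypoxia genes, Hif1a, Egln3 and Bnip3 rose and Arnt, Egln1 and Vhl did not pass. Hif1a (chromosome 12, 73901375 to 73947530), the oxygen-regulated subunit of HIF-1, had 23613 scaled counts in dKO and 9412 in control, a log2 ratio of 1.33 with adjusted p = 4.28e-10 in the authors' deposited table. Hif1a overlaps the noncoding gene Gm15283 on the opposite strand, which had 87.0 scaled counts in dKO and 28.9 in control and rose too (adjusted p 5.37e-05 in the authors' deposited table). Reads of the overlap may count for either gene. Egln3 (chromosome 12, 54178981 to 54203860), which encodes the prolyl hydroxylase PHD3 and is itself a known HIF target, had 3183 in dKO and 957 in control, with adjusted p = 8.11e-09 in the authors' deposited table. The dKO mean of Egln3 was 3.33 times its control mean, a log2 ratio of 1.73. Its control mean allows 2 splits into reads of the control libraries, as described below. With 1 control library left out, its log2 ratio lies between 1.43 and 2.12 under 1 split and between 1.05 and 3.06 under the other. Which split holds is not known, so its place among the 32 genes may depend on 1 library. Bnip3, a mitochondrial protein that promotes mitophagy, had 340 in dKO and 209 in control (log2 ratio 0.70, adjusted p 0.0044 in the authors' deposited table).

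The remaining hypoxia genes had similar means in the groups. Arnt had 1774 scaled counts in dKO and 1914 in control. Egln1, the main prolyl hydroxylase PHD2, had 3679 in dKO and 3282 in control, and Vhl had 1026 in dKO and 1031 in control. Their log2 ratios in the authors' deposited table were -0.11, 0.16 and -0.01. Per kilobase of exon, Egln3 stood at 1.14 times Egln1 in dKO and at 0.385 times Egln1 in control, so the order of these hydroxylase genes differed between the group means, which was not tested. In the pair Egln3 stood below Egln1 in both libraries, at 0.940 times its FPKM in the library labelled dKO and 0.180 times in the library labelled control.

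Promoters of 6 of these genes are shown, those of 4 genes that rose (a hydroxylase, a transporter and 2 enzymes) and of 2 that fell, to show how the sequences ACGTG and GCGTG, which HIF-1 is known to bind, lie in them. Each window runs from 250 bases before to 50 bases after a transcript start in RefSeq (GRCm38.p6), taken nearest to the start in the deposited table, and reads in the direction of the gene. Capitals mark ACGTG or GCGTG on either strand, so a match on the opposite strand appears as CACGT or CACGC, and CACGTG counts as a match on each strand. The start used for Ldha lies 4329 bases from the deposited gene start and that for Slc16a3 587 bases.
Egln3 (chr12:54203825-54204124, minus strand): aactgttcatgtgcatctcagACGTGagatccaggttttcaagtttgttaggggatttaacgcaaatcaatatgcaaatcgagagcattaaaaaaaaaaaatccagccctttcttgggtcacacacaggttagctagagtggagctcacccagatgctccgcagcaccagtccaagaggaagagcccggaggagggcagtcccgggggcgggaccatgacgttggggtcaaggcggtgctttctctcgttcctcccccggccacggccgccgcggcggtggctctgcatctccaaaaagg
Slc16a3 (chr11:120948817-120949116, plus strand): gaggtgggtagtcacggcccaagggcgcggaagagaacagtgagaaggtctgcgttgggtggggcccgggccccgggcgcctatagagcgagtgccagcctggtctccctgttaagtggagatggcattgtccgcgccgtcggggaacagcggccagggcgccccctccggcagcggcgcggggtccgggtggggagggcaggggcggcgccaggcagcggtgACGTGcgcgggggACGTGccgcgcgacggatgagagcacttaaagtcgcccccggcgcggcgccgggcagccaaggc
Pgk1 (chrX:106186850-106187149, plus strand): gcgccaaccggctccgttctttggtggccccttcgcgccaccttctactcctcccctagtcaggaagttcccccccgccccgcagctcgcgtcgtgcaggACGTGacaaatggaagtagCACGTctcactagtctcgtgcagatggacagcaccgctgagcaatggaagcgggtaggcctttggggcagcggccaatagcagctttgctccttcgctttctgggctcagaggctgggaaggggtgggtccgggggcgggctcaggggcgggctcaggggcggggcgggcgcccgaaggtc
Ldha (chr7:46845554-46845853, plus strand): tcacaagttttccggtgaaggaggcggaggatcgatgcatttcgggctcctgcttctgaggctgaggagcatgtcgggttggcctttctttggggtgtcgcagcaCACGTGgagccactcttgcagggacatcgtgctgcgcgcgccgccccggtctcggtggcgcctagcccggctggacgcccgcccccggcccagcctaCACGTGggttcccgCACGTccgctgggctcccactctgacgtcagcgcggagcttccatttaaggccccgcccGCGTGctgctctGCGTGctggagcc
Pfkfb4 (chr9:108991652-108991951, plus strand): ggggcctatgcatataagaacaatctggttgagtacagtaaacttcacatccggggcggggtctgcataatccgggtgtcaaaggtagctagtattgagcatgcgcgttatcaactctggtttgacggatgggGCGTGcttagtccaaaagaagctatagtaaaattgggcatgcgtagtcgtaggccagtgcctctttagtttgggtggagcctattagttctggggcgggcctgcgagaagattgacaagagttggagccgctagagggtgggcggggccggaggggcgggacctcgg
Eno2 (chr6:124769624-124769923, minus strand): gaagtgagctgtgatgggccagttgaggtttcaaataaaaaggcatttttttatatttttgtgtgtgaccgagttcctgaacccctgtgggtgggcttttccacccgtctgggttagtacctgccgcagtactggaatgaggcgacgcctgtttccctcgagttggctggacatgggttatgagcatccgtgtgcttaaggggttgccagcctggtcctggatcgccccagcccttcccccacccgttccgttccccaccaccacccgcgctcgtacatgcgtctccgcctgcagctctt

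The motif itself was common. At least 1 match lay in the window of 24 of the 31 genes for which a promoter was found, against 62.5% of 9929 promoters of genes with a mean of 10 scaled counts or more. The window of Ldha held 7 matches, those of Slc16a3 and Pgk1 held 2 each, those of Egln3 and Pfkfb4 held 1 each, and that of Eno2 held 0. No promoter was read for Slc2a3. Matches were found for 12 of the 15 genes that rose, 2 of the 3 that fell and 10 of 13 that did not pass. All risers shown above hold a match, while the risers without one, Aldoa, Tpi1 and Pkm, are not shown. Ldhb, the faller not shown, holds 1 match. The sequence CACGTG, which is bound by MYC and contains the HIF motif on both strands, lay in 6 of the 31 windows and in 10.1% of the 9929. CAGCTG or CAGGTG on either strand, sequences bound by E proteins, lay in 9 of the 31 windows and in 29.7% of the 9929. A match describes the letters in the window and not a bound site.

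Where a step has several isoforms, the mix of transcripts differed between the groups. These shares use scaled counts per kilobase of annotated exon, and they rest on group means, so the differences between shares were not tested. Hk2 made up 15.7% of hexokinase transcripts (Hk1 and Hk2) in dKO and 9.06% in control. Ldhb made up 8.28% of lactate dehydrogenase transcripts in dKO and 15.2% in control, and the ratio of Ldha to Ldhb was 11.1 in dKO and 5.57 in control. Slc16a3 made up 44.4% of the MCT1 and MCT4 transcripts in dKO and 27.6% in control. Pfkm made up 12.9% of phosphofructokinase transcripts in dKO and 18.7% in control, and Pfkp made up 38.9% in dKO and 34.2% in control. Pdk2, a further pyruvate dehydrogenase kinase gene, made up 8.22% of the transcripts of its family (Pdk1 to Pdk4) in dKO and 15.6% in control. By contrast, Slc2a1 made up 56.0% of the GLUT1 and GLUT3 transcripts in dKO and 55.9% in control. In the single pair described last, the differences of the Hk2 and Ldhb shares had the same sign, with Ldhb at 6.76% in the library labelled dKO and 10.7% in the library labelled control. The difference of the Slc16a3 share had the opposite sign there, with 49.2% in the library labelled dKO and 54.0% in the library labelled control.

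**Figure D2:**
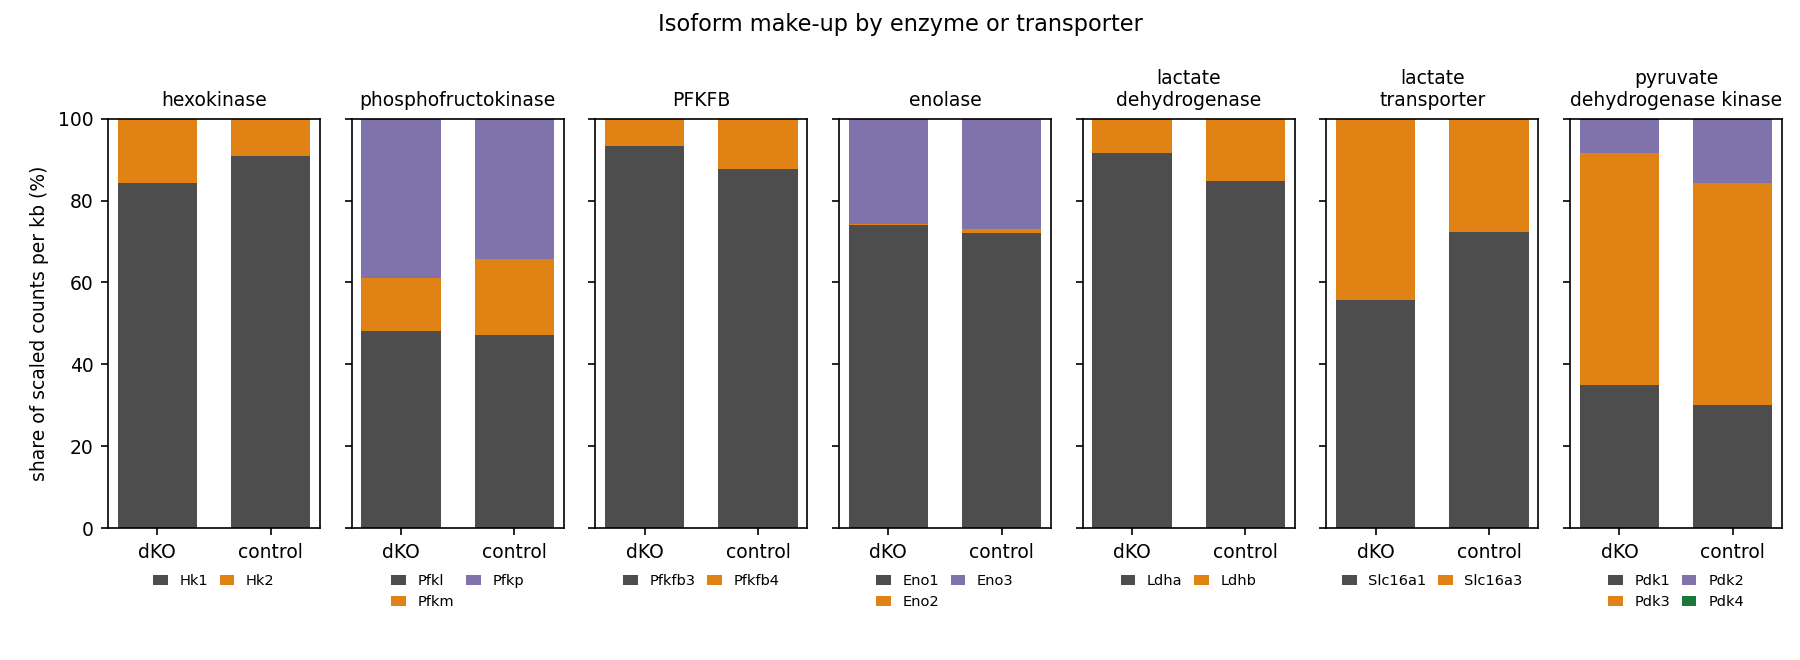
Share of each isoform in the scaled counts per kilobase of exon of its enzyme or transporter, in percent, with the dKO bar left of the control bar in each panel. Hk2, Slc16a3 and Ldha take a larger part of the dKO bars, and Pfkfb4, Ldhb and Pdk2 take a larger part of the control bars.

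The spread between libraries could be seen for some genes. Each control mean is a sum of whole reads of 2 libraries with size factors of 1.29 and 1.09, and for 7 of the 32 genes 1 split into whole reads fits the deposited mean. The 2 control libraries are called here the deeper and the other control library. Hk2 had 452 scaled counts in the deeper and 509 in the other control library, both below its dKO mean of 934. For Slc16a3, the dKO mean of 1818 stood above 699 and 687 scaled counts in the control libraries. For Bnip3, the dKO mean of 340 stood above 229 in the deeper and 189 in the other control library. Eno2, with a dKO mean of 85.8, had 271 and 298 in the control libraries, and Pfkfb4, with a dKO mean of 93.2, had 165 and 192. These 5 genes past the threshold kept their direction against each control library alone. The abundant risers, among them Pkm, Ldha, Tpi1, Gapdh, Pgk1, Aldoa, Eno1 and Hif1a, could not be set against single control libraries.

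The remaining genes with 1 split did not pass the threshold. Pfkm had a dKO mean of 622 scaled counts against 711 and 756 in the control libraries. Aldoc had a dKO mean of 190 against 219 and 260. Across 3167 genes with a control mean of 100 to 700 scaled counts and 1 split, the median absolute log2 ratio of the control libraries was 0.18 and the 90th percentile was 0.59. For these 7 genes the log2 ratio of the deeper over the other control library lay between -0.25 and 0.28. Slc16a1 and Vhl, like Egln3, allow 2 splits. The dKO means could not be split in this way.

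**Figure D3:**
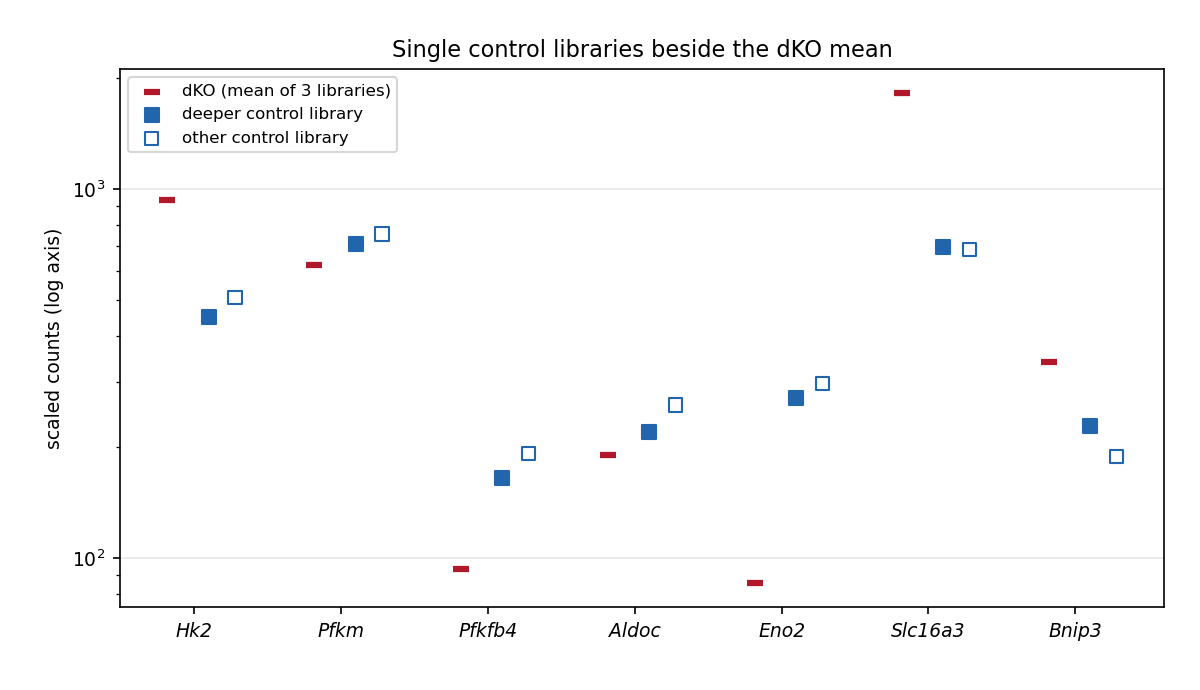
Scaled counts on a log axis for the 7 genes whose control mean allows 1 split into whole reads, with the dKO mean as a red dash, the deeper control library as a filled square and the other control library as an open square. The red dash lies above both squares for Hk2, Slc16a3 and Bnip3 and below both for Pfkm, Pfkfb4, Aldoc and Eno2.

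Egln3 was the 1 gene past the threshold whose control mean allows 2 splits. They give 1180 and 734 scaled counts, or 381 and 1533, in the deeper and the other control library. The dKO mean of 3183 was above all 4 values. Against single control libraries its log2 ratio ranged from 1.43 to 2.12 under the first split and from 1.05 to 3.06 under the second. Under the second split, 1 library thus moves the fold of Egln3 by more than 1.5 times. Kdm5d and Uty, which lie on the Y chromosome, had 601 reads in the deeper and 15 in the other control library, while their dKO means were 2.56 and 17.8 scaled counts. The control means of Kdm5d and Uty were 112 and 128, so the group means differ in Y-linked expression, mostly through the deeper control library. Whether this difference plays a part in Egln3 or in any other of the 32 genes was not tested.

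The pair gives FPKM (fragments scaled by transcript length and library size) for 1 library each, with no replicate check. Log2 ratios were taken of FPKM + 1, so changes of low genes come out smaller than they are. Of the 32 genes, 26 had 5 or more FPKM in at least 1 library. Among these, 18 had a log2 ratio above 0 in the library labelled dKO over the library labelled control, against 50.9% of 8679 genes at that level. A log2 ratio of 0.5 or more was seen for 7 of the 26 (10.4% of all genes) and one of -0.5 or less for 1 of the 26 (12.1% of all genes).

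Genes that passed the threshold in the replicated comparison and had 5 or more FPKM had the same sign in the pair when its libraries were taken by title and source name. Of the 15 that rose, 11 had 5 or more FPKM in at least 1 library, and all 11 were higher in the library labelled dKO. Hk2 was 1 of the 11, but it passed this minimum only through the library labelled dKO, at 6.11 FPKM against 3.10. Eno2, which fell, passed it only through the library labelled control. The minimum thus favours the signs of Hk2 and Eno2, which count for nothing here. Taken by the genotype tags, the sign of every gene in the pair turns, and 8 of the 26 genes lie above 0 with a median log2 ratio of -0.29. The tags and titles disagree. Id2 was lower in the library labelled dKO, while Id3 was higher there, so these 2 genes do not settle the labels. The direction of the pair is therefore in doubt. Egln3 had 45.4 FPKM in the library labelled dKO and 7.23 in the library labelled control, a log2 ratio of 2.50. Its deposited Cuffdiff q of 0.0287, which compares these 2 libraries and not the genotypes, was the only q under 0.05 among the 32 genes. Hif1a had 133 FPKM in the library labelled dKO and 51.1 in the library labelled control, a log2 ratio of 1.36. Pkm had 449 FPKM in the library labelled dKO and 266 in the library labelled control, and Tpi1 had 97.9 FPKM in the library labelled dKO and 52.4 in the library labelled control. Eno2 had 3.00 FPKM in the library labelled dKO and 7.95 in the library labelled control, and Ldhb had 40.5 FPKM in the library labelled dKO and 48.1 in the library labelled control. Both genes had log2 ratios below 0 in both comparisons.

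Slc16a3 differed less in the pair, with 16.5 FPKM in the library labelled dKO and 12.3 in the library labelled control, a log2 ratio of 0.40. Pfkp had 36.6 FPKM in the library labelled dKO and 34.3 in the library labelled control. The glucose transporter genes stood slightly lower in the library labelled dKO, where Slc2a1 had 25.4 FPKM and Slc2a3 had 21.6 FPKM, against 27.2 and 23.4 FPKM in the library labelled control. Pfkfb4, Aldoc, Gapdh, Pgam1, Eno1 and Bnip3 were below 5 FPKM, and of the 4 risers among them only Gapdh had a log2 ratio above 0. Gapdh was listed at only 0.596 FPKM in the library labelled dKO and 0.308 in the library labelled control, although its level per kilobase in the other table was 5443 scaled counts in dKO and 3088 in control. Likewise Eno1 was listed at 1.22 FPKM in the library labelled dKO and 1.26 in the library labelled control, and Pgam1 at 1.18 FPKM in the library labelled dKO and 1.94 in the library labelled control. Pgk1, a riser counted above, was listed at 12.3 FPKM in the library labelled dKO and 6.24 in the library labelled control. Its level per kilobase in the other table was 5589 scaled counts in dKO and 3395 in control. Gapdh, Eno1, Pgam1 and Pgk1 have near-identical copies. The sources used here do not say how reads with several matches were counted for the pair. The Y-linked gene Kdm5d was listed at 0 FPKM in the library labelled dKO and at 4.91 in the library labelled control, so the pair also differs in Y-linked expression, whose part in these ratios was not tested.

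**Figure D4:**
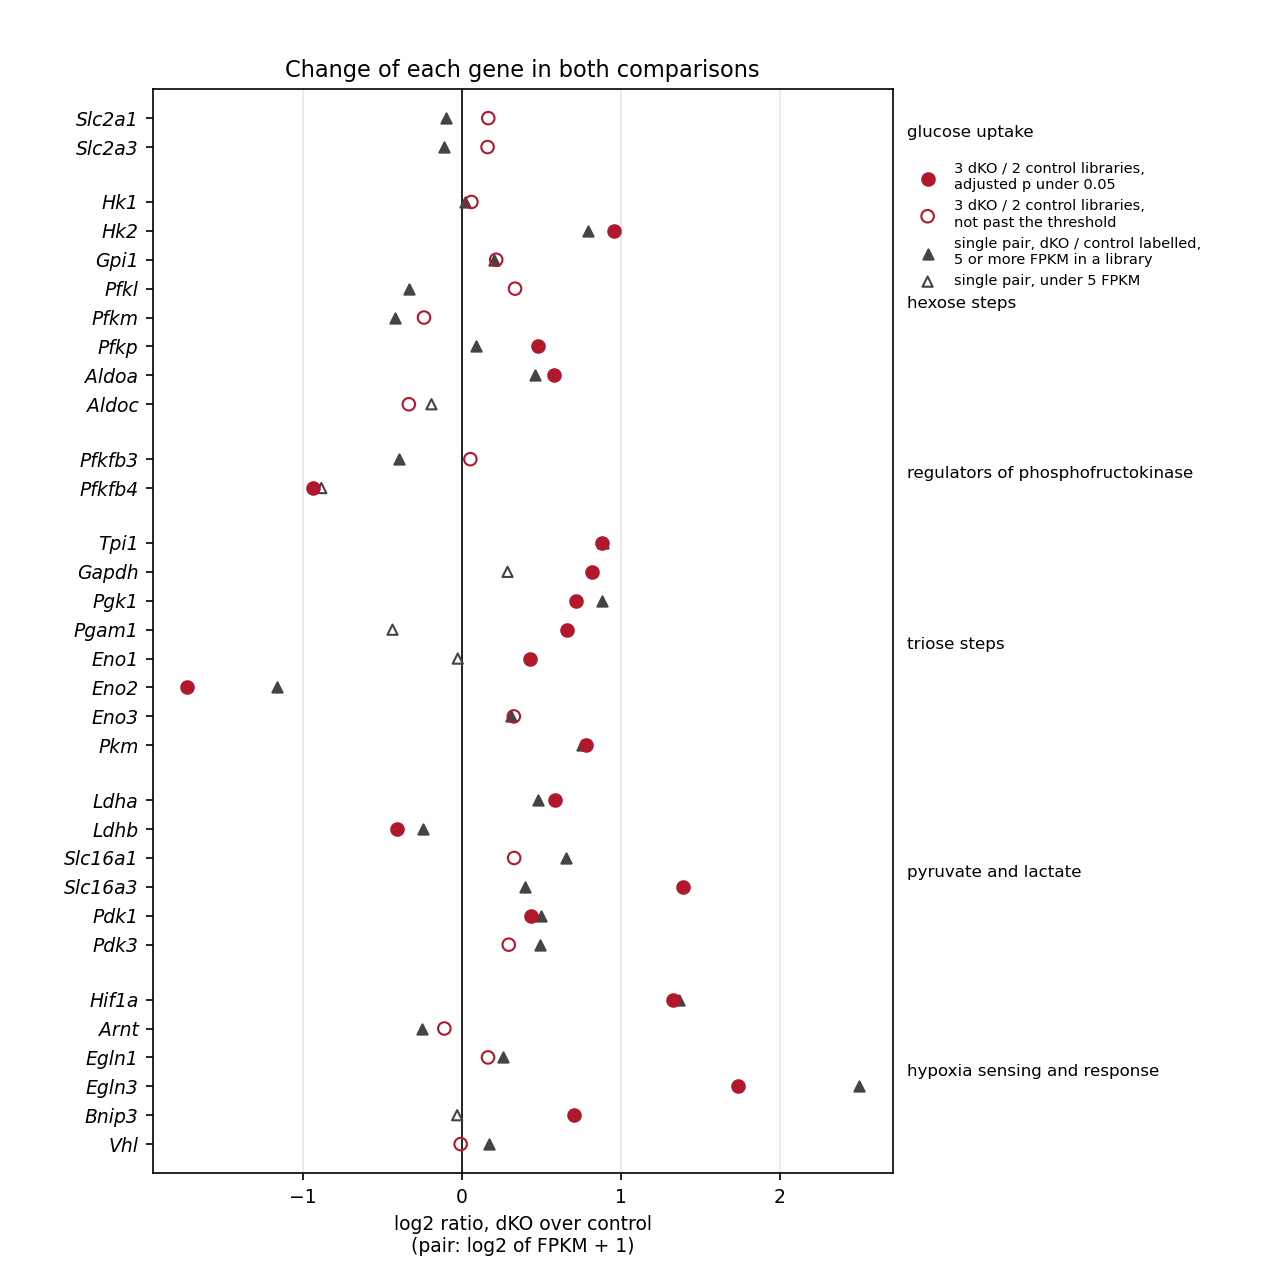
Log2 ratio of each gene, dKO over control, with circles for the replicated comparison (filled where the adjusted p is under 0.05) and triangles for the single pair (filled at 5 or more FPKM in a library, on the log2 FPKM + 1 scale). Hif1a, Tpi1 and Pkm sit at nearly the same place in both comparisons, while Slc16a3, Gapdh, Pgam1 and Bnip3 lie further left in the pair.

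Further genes of the same steps and of the hypoxia response were read from lists drawn up by function. Of 25 other hypoxia response genes, 4 rose, 0 fell and 21 did not pass, with a median log2 ratio of 0.07 over the 24 with a mean of 10 or more. Bhlhe41, a transcriptional repressor, had 181 scaled counts in dKO and 10.4 in control (log2 ratio 4.12, adjusted p 1.32e-12 in the authors' deposited table). Ndrg1, a stress-induced cytoplasmic protein, had 1858 in dKO and 837 in control (adjusted p 3.05e-13 in the authors' deposited table). P4ha2, a collagen prolyl hydroxylase, had 78.2 in dKO and 22.3 in control, and Ankrd37 had 291 in dKO and 187 in control, with adjusted p-values of 6.03e-05 and 0.0189 in the authors' deposited table. In the pair, Ankrd37 went the other way, with 4.27 FPKM in the library labelled dKO and 7.80 in the library labelled control. Bhlhe41, Ndrg1 and P4ha2 were higher in the library labelled dKO. Hypoxia targets that did not pass included Vegfa, with 38.2 scaled counts in dKO and 20.1 in control, and Ddit4, with 7555 in dKO and 8247 in control. Vegfa and Ddit4 were chosen after their values were seen.

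Of 28 other isoforms of the same steps in the table, 0 rose, 1 fell and 27 did not pass. The fall was that of Pdk2, with 350 scaled counts in dKO and 567 in control, a log2 ratio of -0.69 and adjusted p = 0.0008 in the authors' deposited table. Among 27 genes of pyruvate entry and the citric acid cycle, 5 rose and 1 fell, with a median log2 ratio of 0.09. The succinate dehydrogenase gene Sdhb had 7915 scaled counts in dKO and 5819 in control, and the isocitrate dehydrogenase gene Idh3a had 3408 in dKO and 2536 in control, with adjusted p-values of 0.0146 and 0.029 in the authors' deposited table. Fh1, the fumarase, had 4011 in dKO and 3010 in control (adjusted p 0.0326), and Pdp1, the phosphatase that turns pyruvate dehydrogenase back on, fell to 332 in dKO, against 488 in control (adjusted p 0.0172, both from the authors' deposited table).

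Cell division genes were higher in the same samples. Of 16 such genes, 14 rose and 0 fell, with a median log2 ratio of 0.99. Mitotic genes among them were Plk1, with 4006 scaled counts in dKO and 1911 in control, and Birc5, with 4063 in dKO and 2027 in control. Whether more dividing cells play a part in the rise of the glycolysis genes was not tested.

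Markers of other cell types varied in level. The 6 B cell markers summed to 1332 scaled counts in dKO and 1143 in control, and 3 of them had a log2 ratio above 0. Cd79b held 1006 in dKO and 894 in control, and Cd22 held 266 in dKO and 172 in control. Ms4a1 had only 1.47 in dKO and 1.76 in control. The 6 myeloid markers found summed to 280 in dKO and 219 in control, and the 5 dendritic cell markers to 96.3 in dKO and 154 in control, with Clec9a at 0 in control. The 6 erythroid markers found summed to 10.8 in dKO and 12.6 in control, with Hbb-bt at 0 in dKO. The 4 CD8 T and NK cell markers summed to 779 in dKO and 750 in control, mostly Cd8b1. The 4 stromal markers summed to 4550 in dKO and 4883 in control, nearly all of it Pecam1, which Treg and other T cells also express. Of all these markers 0 rose and 2 fell, Xcr1 and Col1a2, with adjusted p-values of 0.0012 and 0.0034 in the authors' deposited table.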

How the data were processed

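Messenger RNA of sorted lymph node Treg was sequenced in 7 libraries. Per the file headers, the first deposited table holds a signal per gene, here called scaled counts, as means over 3 dKO and 2 control libraries, with the authors' log2 ratio and p-values. The means are fractional although the header calls them raw counts, and their low values are steps of whole reads divided by a size factor. RSEM and DESeq (no version stated in the sources used here) and build mm10 are named in the submitters' processing notes. The second deposited table holds FPKM and Cuffdiff p-values and q-values of 1 library against 1. Those notes name TopHat 1.4.0, Cuffdiff 0.0.6 and mm9 for it, and no mm9 coordinates are printed. The deposited signed fold change and test statistic are scores and were not used.

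The count test planned for libraries could not be run on group means, so the authors' test was used as deposited. FPKM was summed over transcripts (96.0% of 27901 entries matched a RefSeq gene). Copies were searched with BLAST 2.17.0 in GENCODE M21 transcripts. Control reads were recovered as whole numbers within 6e-05 of each deposited mean, and the method was tested on simulated data. Per-gene tables were handled in Python 3.11.15. The genes and lists were chosen with earlier results of these data known. From each other list up to 4 genes with the smallest adjusted p are named. Some genes outside this rule are named too, among them Il2ra, Ms4a1, Clec9a and Hbb-bt. Alternatives were the threshold, scaling, filters, copies, overlapping genes, single control libraries and, in the pair, pseudocount and transcript choice.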

Additional observations from a re-analysis of the deposited data

How the results depend on the processing

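Counts of genes called in the replicated comparison kept within 1.5 times under every alternative run. At an adjusted p under 0.01, 13 rose and 2 fell, and at 0.1, 15 rose and 3 fell. Without genes that overlap another gene, 11 of 23 rose and 3 fell, and with only genes of a mean of 10 or more, 15 rose and 3 fell. The median log2 ratio of the 32 genes ranged from 0.30 (scaling to column sums) to 0.46 (upper quartile). The upper quartile shifted all log2 ratios by 0.13, which left the sign of all 18 called genes as it was and put 27 of the 32 genes above 0 in place of 25. In the pair, 17 to 19 genes lay above 0, with medians of 0.18 to 0.29, except that groups taken by the genotype tags, added after seeing the data, put 8 above 0 with a median of -0.29. Leaving out 1 control library was possible for 6 called genes. Their log2 ratios were then 0.88 to 1.05 for Hk2, -1.04 to -0.82 for Pfkfb4 and -1.79 to -1.66 for Eno2. Those of Slc16a3 were at least 1.38, and those of Bnip3 were 0.57 to 0.85. Egln3 ranged from 1.43 to 2.12 or from 1.05 to 3.06, by its 2 possible splits. No paired analysis was possible because the deposited columns are group means. Calls without 1 library could not be had for the same reason.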

Other observations

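Lists of pathways that branch from glycolysis were counted in the same way. Of 8 genes of the pentose phosphate pathway, 1 rose and 0 fell, with a median log2 ratio of 0.22. The gene that rose was Rpia, ribose 5-phosphate isomerase, with 3927 scaled counts in dKO and 2856 in control and adjusted p = 0.0131 in the authors' deposited table. Among 13 genes of gluconeogenesis and glycogen, 0 rose and 1 fell, with a median of -0.36 over the 9 with a mean of 10 or more. Pck2, the mitochondrial phosphoenolpyruvate carboxykinase, fell to 643 scaled counts in dKO, against 965 in control (adjusted p 0.0056 in the authors' deposited table).

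Among 20 genes of MYC and mTORC1, regulators of growth that also act on glycolysis genes, 1 rose and 0 fell, with a median log2 ratio of -0.02. Slc7a5, a large neutral amino acid transporter, had 4401 scaled counts in dKO and 3292 in control (adjusted p 0.0261 in the authors' deposited table). Myc itself had 7774 in dKO and 7651 in control, and Mtor had 1637 in dKO and 1719 in control. Myc and Mtor were chosen after their values were seen.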
